A study of Mus with 8 samples.

Results

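Genes of amino acid breakdown and of the urea cycle were examined in regenerating mouse liver with and without LKB1. The members were taken by gene symbol from a list of 43 enzymes, of which 40 had a named row on the array, among 23185 named genes in all. Gls2, Sds and Sdsl were not analysed here. The 40 were placed by role in the urea cycle (6), transamination and ammonia release (5), histidine (3), aromatic (3), serine and glycine (3), proline (3), branched-chain (6), lysine (1), methionine and sulfur (8) and creatine (2) groups. The rule for membership is a gene's function and uses no measured value, though the list was drawn up with earlier results of these data known.

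Each of 8 liver samples was run on its own expression array. All had been collected 48 h after partial hepatectomy, the removal of part of the liver, after which the remnant grows back. The genotype was Ctrl in 4 of them, called Control here, and LKB1 KO in the other 4. The labels used here give no strain, sex, age or promoter behind the deletion. They do not say whether each sample came from a separate animal, so a p-value covers only the spread among these samples, which may be technical. Values are log2 expression as the authors deposited it, listed in the order of replicates 1 to 4, and each difference is the mean of LKB1 KO less that of Control, on the log2 scale. A gene was called when its limma adjusted p (Benjamini-Hochberg over all 23185 genes) was under 0.05.

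Breakdown of amino acids releases nitrogen as ammonia or passes it to glutamate and aspartate, and the urea cycle, which runs mainly in periportal hepatocytes, joins that nitrogen to bicarbonate to form urea. Nitrogen enters each turn as carbamoyl phosphate made in mitochondria and as aspartate in the cytosol. The carbon skeletons feed gluconeogenesis, ketone bodies or oxidation, while the methionine and cysteine routes supply methyl groups, glutathione and taurine. Glucagon, glucocorticoids and transcription factors such as C/EBP alpha are known to raise the expression of many of these enzymes.

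Stk11, which encodes the kinase LKB1, lay between 6.46 and 6.76 on the Control arrays and between 3.97 and 4.84 on the LKB1 KO arrays, so no array went against its label. The array medians ran from 3.75 to 3.96, and the correlations between arrays from 0.960 to 0.988. LKB1 KO 2 had the narrowest spread of values over genes (SD 1.92, against 2.03 to 2.10 on the others). Its mean correlation with its own group was 0.974, and that of Control 4 was 0.976, the lowest among Control arrays. Hepatocyte markers were strong on every array. The summed level of the 11 measured (log2 of the summed linear values) was 15.43 to 15.50 in Control and 15.27 to 15.34 in LKB1 KO, and 0 of them passed the test (4 at an unadjusted p under 0.05).

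For most of the nitrogen-handling enzymes the difference between the groups did not pass the test. Got1, the cytosolic aspartate aminotransferase, rose 2.17-fold in LKB1 KO livers, and Gamt, the last enzyme of creatine synthesis, fell to a level 1.71-fold lower. The other 38 did not pass. On simulated arrays with independent noise, the same fit recovered 8.46% of changes of 0.5 and 65% of changes of 1 on the log2 scale. A gene that did not pass may therefore still differ. Thus 2 of 40 members (5.0%) were called, against 1.98% of all genes tested (0.487% higher and 1.49% lower), or 3.79% of the 15456 genes left when the dimmest were set aside, and with a count this small the share is no result about the group as a whole. The median difference was -0.04 over the members, with 19 means higher and 21 lower in LKB1 KO, and 0.02 over all genes. Differences beyond 1.5-fold were seen in 5 members (Asl, Got1, Cth, Cdo1 and Gamt) and beyond 2-fold in Got1 alone. An unadjusted limma p under 0.05 was found for 14 of the 40 members, against 3114 of all 23185 genes. Counts at that p in single lists are to be read beside this share of all genes, and none of them was tested. A difference in a bulk sample does not tell fewer cells of a type from less RNA per cell.

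**Figure D1:**
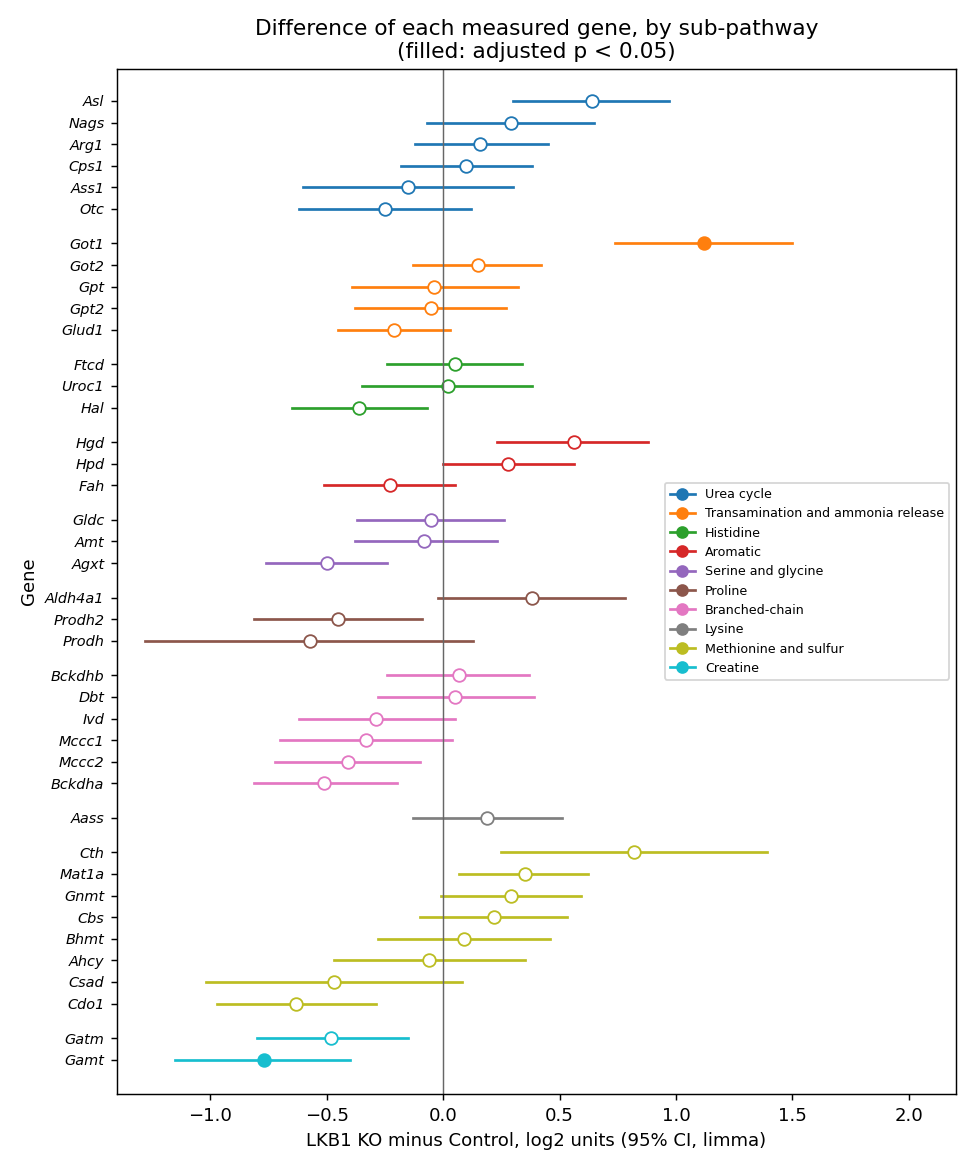
Difference of each of the 40 measured genes, LKB1 KO minus Control in log2 units on the x axis, by sub-pathway (colour), with the 95% confidence interval of the limma fit (4 arrays per group). Filled points mark an adjusted p under 0.05, reached by Got1 at 1.12 and Gamt at -0.77, while most intervals include 0.

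Control and LKB1 KO arrays were fully separate in 13 of the 40 members (32.5%), against 8.84% of all genes, or 11.7% of the 15456 brighter genes. In LKB1 KO, Asl, Got1, Hgd, Mat1a and Gnmt lay wholly above Control, where 3.34% of all genes did so. Glud1, Hal, Agxt, Bckdha, Mccc2, Cdo1, Gatm and Gamt lay wholly below it, against 5.5% of all genes. Of these 13, 11 did not pass the test. Among the 11 hepatocyte markers the arrays were separate in 7 (63.6%).

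In the urea cycle the largest difference was in Asl, which splits argininosuccinate into arginine and fumarate. Asl (Entrez Gene 109900) stood at 9.86, 9.65, 10.21 and 9.71 in Control and at 10.59, 10.26, 10.60 and 10.53 in LKB1 KO. Every LKB1 KO array lay above every Control array, with Control 3 and LKB1 KO 2 close to each other. The means were 9.86 ± 0.25 and 10.49 ± 0.16 (SD, n = 4). At 0.64 (SE 0.15, 95% confidence interval 0.30 to 0.97), the difference missed the threshold, with a limma adjusted p of 0.0666. It passed without Control 3 (0.75, adjusted p = 0.0344), with quantile normalization (0.0411), with array weights (0.0290) and with a trended and robust prior variance (0.0248).

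Cps1, the mitochondrial synthetase that commits ammonia to the cycle, was nearly level between the groups. Its values were 11.57, 11.57, 11.85 and 11.58 in Control and 11.86, 11.58, 11.70 and 11.82 in LKB1 KO. The ranges coincide, with Control 3 alone among the Control arrays at the height of the upper LKB1 KO arrays. The difference was 0.10 (SE 0.13, interval -0.18 to 0.38, adjusted p = 0.805). Nags, whose product N-acetylglutamate activates the Cps1 enzyme, stood at 8.19, 8.74, 8.64 and 8.77 in Control and 8.93, 8.60, 9.08 and 8.89 in LKB1 KO. The groups overlapped through LKB1 KO 2, and the difference was 0.29 (SE 0.16, adjusted p = 0.502).

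The remaining enzymes of the cycle also did not pass. Otc, which joins carbamoyl phosphate to ornithine, differed by -0.25 (interval -0.62 to 0.12), and Arg1, which releases urea, by 0.16 (interval -0.12 to 0.45). Ass1, which adds aspartate to citrulline, differed by -0.15 (interval -0.60 to 0.30). Its values lay only 0.36 to 1.32 above the array medians, the lowest of the cycle. In all, 0 of 6 urea cycle genes passed with limma (1 at an unadjusted p under 0.05), with a median difference of 0.13. The array medians of the 6, as deviations from the mean of all arrays, ran from -0.14 to 0.06 in Control and from -0.11 to 0.22 in LKB1 KO.

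Among the aminotransferases and ammonia-releasing enzymes, Got1 changed most. Its product aspartate can supply nitrogen to the urea cycle, and it is also part of the malate-aspartate shuttle. Got1 (Entrez Gene 14718) had values of 9.52, 9.37, 9.95 and 9.95 in Control and 10.99, 10.52, 10.89 and 10.85 in LKB1 KO. Each LKB1 KO array exceeded each Control array, and the lowest of them was again LKB1 KO 2. The means were 9.70 ± 0.30 and 10.81 ± 0.21 (SD, n = 4), a rise of 1.12 (SE 0.17, interval 0.74 to 1.5, limma adjusted p = 0.00908). Got1 was called under all 18 alternative settings. With single arrays left out, its difference was 1.01 to 1.22 and its adjusted p 0.0104 to 0.0377.

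Got2, the mitochondrial aspartate aminotransferase, showed no such change. It was measured at 9.65, 9.77, 9.78 and 9.73 in Control and 9.97, 9.63, 9.98 and 9.94 in LKB1 KO, so that 3 LKB1 KO arrays lay above all Control arrays and LKB1 KO 2 below them. The difference was 0.15 (SE 0.12, interval -0.13 to 0.42, adjusted p = 0.685). The log2 ratio of Got1 to Got2 within an array was -0.39 to 0.22 in Control and 0.89 to 1.03 in LKB1 KO, a shift of 0.97. The groups did not overlap, which gives the smallest p that an exact two-sided permutation test of 4 against 4 can reach (0.0286, or 0.0762 adjusted over 8 such pairs of enzymes, picked after their values had been seen).

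Glud1, glutamate dehydrogenase, varied little within the groups. Its values were 10.40, 10.46, 10.42 and 10.37 in Control and 10.19, 10.12, 10.22 and 10.26 in LKB1 KO. The LKB1 KO arrays were all lower, by little: the difference of -0.21 (SE 0.11, interval -0.45 to 0.03) did not pass (adjusted p = 0.446). The alanine aminotransferases Gpt and Gpt2 differed by -0.04 (interval -0.39 to 0.32) and -0.05 (interval -0.38 to 0.27). In this group 1 of 5 rose and 0 fell, and its median difference was -0.04.

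**Figure D2:**
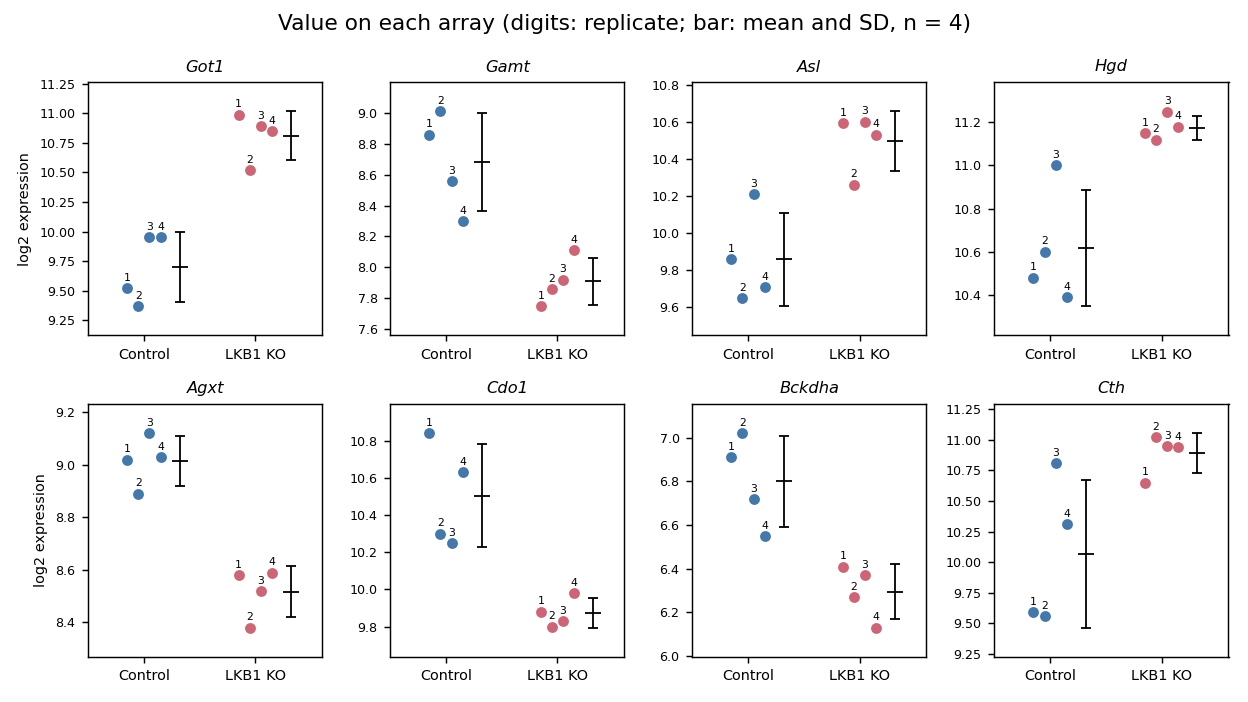
Log2 expression on each array for 8 genes, Control in blue and LKB1 KO in red, with the replicate number above each point and the mean and SD (n = 4) beside it; the y axes differ between genes and do not start at 0. Got1, Asl and Hgd are higher on all LKB1 KO arrays, Gamt, Agxt, Cdo1 and Bckdha lower on all of them, and Cth overlaps through Control 3.

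Of the histidine enzymes, only the first step stood apart from Control in its array values. Hal, histidine ammonia-lyase, was at 8.60, 8.50, 8.67 and 8.48 in Control and 8.31, 7.95, 8.19 and 8.37 in LKB1 KO. All LKB1 KO arrays were lower, yet the difference of -0.36 (SE 0.13, interval -0.65 to -0.07) did not pass (adjusted p = 0.239). Ftcd, which hands the last histidine fragment to folate, had 8.67, 8.67, 8.70 and 8.35 in Control and 8.67, 8.47, 8.76 and 8.70 in LKB1 KO. Its groups overlapped fully, at a difference of 0.05 (interval -0.24 to 0.34, adjusted p = 0.912). Urocanase, Uroc1, differed by 0.02 (interval -0.35 to 0.38).

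In tyrosine breakdown the middle enzyme had the largest difference. Hgd, homogentisate dioxygenase (Entrez Gene 15233), stood at 10.48, 10.60, 11.0 and 10.39 in Control and 11.15, 11.12, 11.25 and 11.18 in LKB1 KO. The LKB1 KO values were nearly equal and all higher than Control, of which Control 3 came closest. The difference was 0.56 (SE 0.15, interval 0.23 to 0.88, adjusted p = 0.0920). It passed without Control 3 (0.69, adjusted p = 0.0318) and with a trended and robust prior variance (0.0291).

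The other members of this group differed less. Hpd, the dioxygenase that makes homogentisate, had 11.01, 11.09, 11.31 and 11.02 in Control and 11.55, 11.26, 11.35 and 11.37 in LKB1 KO. Its arrays overlapped through Control 3 and LKB1 KO 2, and the difference of 0.28 (SE 0.13) did not pass (adjusted p = 0.369). Fah, which ends the route, was at -0.23 (interval -0.51 to 0.05). None of the 3 was called by limma, with 2 at an unadjusted p under 0.05, and the median difference was 0.28.

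Among serine and glycine enzymes Agxt came near the threshold. It encodes the aminotransferase that turns glyoxylate into glycine. Agxt (Entrez Gene 11611) had values of 9.02, 8.89, 9.12 and 9.03 in Control and 8.58, 8.38, 8.52 and 8.59 in LKB1 KO. The groups were clearly apart, with a gap wider than the range within either. The means were 9.02 ± 0.10 and 8.52 ± 0.10 (SD, n = 4), and the difference was -0.50 (SE 0.12, interval -0.76 to -0.24, adjusted p = 0.0608). It passed with quantile normalization (0.0483), among the brighter genes (0.0493) and with a trended and robust prior variance (0.0239). The glycine cleavage genes were level: Amt had 6.59, 6.70, 6.82 and 6.40 in Control and 6.49, 6.40, 6.55 and 6.76 in LKB1 KO. These ranges coincide (difference -0.08, interval -0.38 to 0.23), as do those of Gldc (-0.05, interval -0.37 to 0.26).

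The proline genes went in both directions without passing. Prodh2, which oxidises hydroxyproline, had 8.22, 8.25, 8.16 and 7.60 in Control and 7.66, 7.73, 7.54 and 7.49 in LKB1 KO. Control 4 lay among the LKB1 KO arrays, and the difference was -0.45 (SE 0.16, adjusted p = 0.235). Without Control 4 it was -0.60 and passed (adjusted p = 0.0451). Prodh, proline dehydrogenase, had the widest Control range of all members, 7.91, 7.53, 7.38 and 6.14, against 6.76, 6.33, 6.80 and 6.76 in LKB1 KO. Here too Control 4 was the low array. The difference was -0.57 (SE 0.32, adjusted p = 0.492), and -0.94 without Control 4, which passed (adjusted p = 0.0290).

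Aldh4a1, the mitochondrial dehydrogenase that acts after Prodh and makes glutamate, had a higher mean in LKB1 KO. Its values were 8.39, 8.51, 8.77 and 8.01 in Control and 8.95, 8.45, 8.90 and 8.91 in LKB1 KO. LKB1 KO 2 lay inside the Control range and the other 3 above it, at a difference of 0.38 (SE 0.18, adjusted p = 0.408). The median difference of the 3 proline genes was -0.45, with 0 called by limma and 1 at an unadjusted p under 0.05. It ranged from -0.64 to -0.35 over the alternatives, and their array medians ran from -0.60 (Control 4) to 0.42 in Control and from -0.19 to -0.15 in LKB1 KO.

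Branched-chain genes had lower means in 4 of 6 cases, and 0 passed with limma (2 at an unadjusted p under 0.05). Bckdha, the alpha subunit of the branched-chain ketoacid decarboxylase, stood at 6.91, 7.02, 6.72 and 6.55 in Control and 6.41, 6.27, 6.37 and 6.13 in LKB1 KO. Every LKB1 KO array was lower, with Control 4 nearest to them. The difference was -0.51 (SE 0.14, interval -0.81 to -0.20, adjusted p = 0.109). Its partner subunit gene Bckdhb differed by 0.07 (interval -0.24 to 0.37). The log2 ratio of Bckdha to Bckdhb was -2.35 to -1.82 in Control and -2.74 to -2.43 in LKB1 KO, without overlap (shift -0.57, exact permutation p = 0.0286, adjusted over 8 pairs 0.0762). That p is the smallest the test can reach, and this pair too was picked after its values had been seen. These ratios compare arrays only, because the probes of different genes respond differently.

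Leucine breakdown further along gave smaller differences in the same direction. Mccc2, a subunit gene of methylcrotonyl-CoA carboxylase, had 7.15, 6.83, 6.80 and 6.66 in Control and 6.38, 6.41, 6.36 and 6.64 in LKB1 KO. Control 4 and LKB1 KO 4 nearly met, and the difference was -0.41 (SE 0.14, adjusted p = 0.203). Its partner Mccc1 was at -0.33 (interval -0.70 to 0.04) and Ivd, isovaleryl-CoA dehydrogenase, at -0.29 (interval -0.62 to 0.05). Dbt, the transacylase core of the ketoacid complex, was at 0.05 (interval -0.28 to 0.39). The median of the 6 was -0.31, and the array medians overlapped (-0.19 to 0.26 in Control, -0.26 to 0.01 in LKB1 KO). Lysine breakdown was represented by Aass, at 10.35, 9.91, 10.26 and 9.95 in Control and 10.43, 10.11, 10.40 and 10.31 in LKB1 KO. These overlapped, with a difference of 0.19 (interval -0.13 to 0.51, adjusted p = 0.632).

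In the methionine and sulfur group, 5 means were higher and 3 lower in LKB1 KO, with a median of 0.15, and 0 of 8 passed with limma (3 at an unadjusted p under 0.05). Cdo1, cysteine dioxygenase (Entrez Gene 12583), which starts cysteine oxidation towards taurine and sulfate, was at 10.84, 10.30, 10.25 and 10.63 in Control and 9.88, 9.80, 9.83 and 9.98 in LKB1 KO. The LKB1 KO arrays were tightly grouped below all Control arrays. The means were 10.50 ± 0.28 and 9.87 ± 0.08 (SD, n = 4), and the difference was -0.63 (SE 0.15, interval -0.97 to -0.29, adjusted p = 0.0663). It passed with a trended and robust prior variance (0.0242). Csad, the next step towards taurine, differed by -0.47 (interval -1.02 to 0.08), and its Control arrays were spread from 5.27 to 6.54.

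Cth, cystathionine gamma-lyase, which makes the cysteine that Cdo1 consumes, had the second largest difference among members. Its values were 9.59, 9.56, 10.81 and 10.31 in Control and 10.65, 11.02, 10.95 and 10.94 in LKB1 KO. Control 3 reached the LKB1 KO range while Control 1 and 2 lay far below it. The difference was 0.82 (SE 0.26, interval 0.25 to 1.39, adjusted p = 0.169), and without Control 3 it was 1.07 and passed (adjusted p = 0.0335). Cbs, the step before Cth, differed by 0.22 (interval -0.10 to 0.53).

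The methionine cycle genes did not pass the test. Mat1a, which makes the methyl donor S-adenosylmethionine, differed by 0.35 (interval 0.07 to 0.62, adjusted p = 0.234), and Gnmt, which spends it on glycine, by 0.29 (interval -0.01 to 0.59, adjusted p = 0.387). Both separated the groups by array without passing the test. Ahcy, which clears the product of methyl transfer, was at -0.06 (interval -0.47 to 0.35), and Bhmt, which remethylates homocysteine from betaine, at 0.09 (interval -0.28 to 0.46).

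Creatine synthesis gave the call among the falls. Gamt (Entrez Gene 14431), which methylates guanidinoacetate to creatine, stood at 8.86, 9.01, 8.56 and 8.30 in Control and at 7.75, 7.86, 7.92 and 8.11 in LKB1 KO. Each LKB1 KO array was below each Control array, with Control 4 and LKB1 KO 4 nearest to each other. The means were 8.68 ± 0.31 and 7.91 ± 0.15 (SD, n = 4), and the difference was -0.77 (SE 0.17, interval -1.15 to -0.40, limma adjusted p = 0.0446). The call was lost when any array other than Control 4 was left out (adjusted p up to 0.131) and with quantile normalization (0.0514). With the replicate number as a block it was lost too (0.121). Without Control 4 the difference was -0.90 (adjusted p = 0.0190).

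Gatm, which makes guanidinoacetate from arginine and glycine, was lower on the same arrays. It had 5.86, 5.53, 5.56 and 5.6 in Control and 5.04, 4.91, 5.29 and 5.41 in LKB1 KO. The groups did not overlap, but the difference of -0.48 (SE 0.15, interval -0.80 to -0.15) did not pass (adjusted p = 0.162). The 2 creatine genes had a median of -0.63 and array medians of 0.10 to 0.51 in Control and -0.46 to -0.09 in LKB1 KO.

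**Figure D3:**
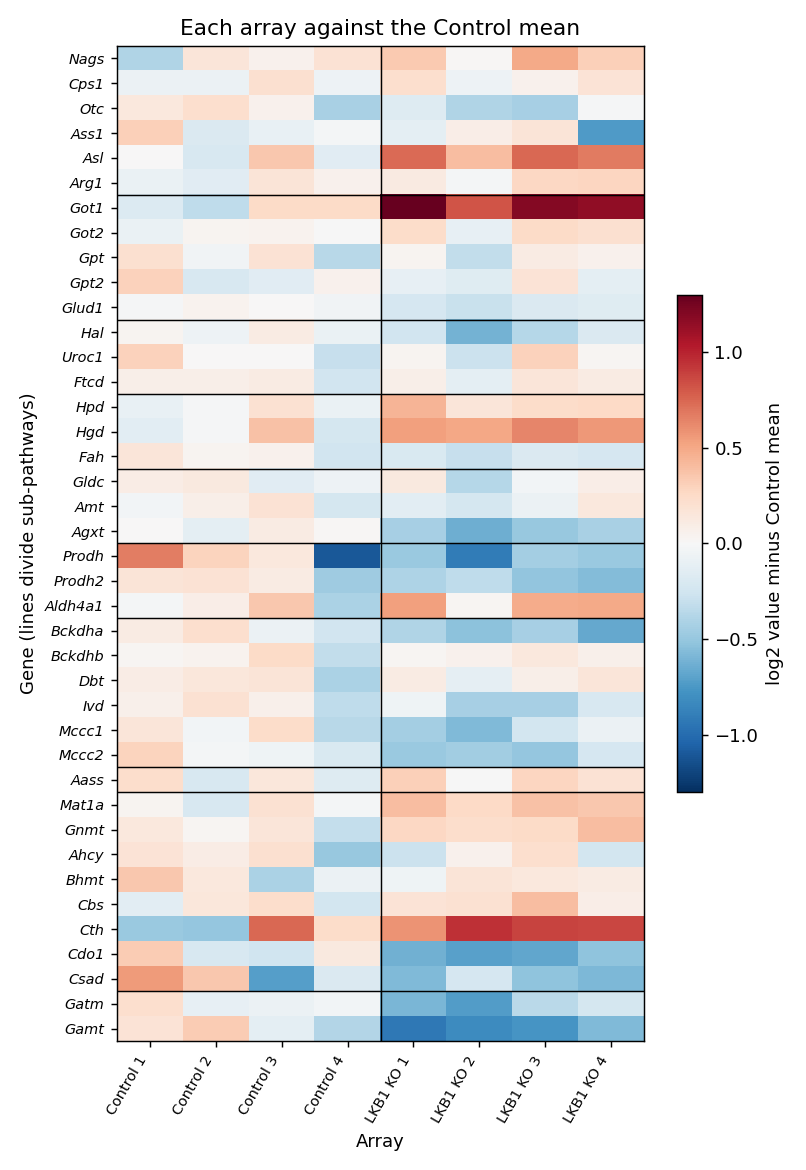
Log2 value of each of the 40 genes (rows, divided by sub-pathway) on each of the 8 arrays (columns), as the difference from the gene's Control mean (red higher, blue lower). Got1, Asl and Hgd are red across LKB1 KO, Agxt, Cdo1, Gatm and Gamt blue, and Control 4 shows low values in several sub-pathways, among them Prodh.

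Members varied more among the Control arrays than among the LKB1 KO arrays. The SD was larger in Control for 33 of 40 (82.5%), with a median SD of 0.226 in Control and 0.151 in LKB1 KO. Over all genes the SD was larger in Control for 47.3%, and the median SDs were 0.208 and 0.221. The widest Control spreads were in Prodh (SD 0.77), Cth (0.61) and Csad (0.57). In 36 of 40 members (90.0%, against 51.7% of all genes) Control had the larger SD after quantile normalization. When Control 4 was left out, this held in only 22 (55.0%, against 41.8% of all genes). Without both Control 4 and LKB1 KO 2, it was larger in 28 (70.0%, against 55.7%). These counts describe a list of genes that share arrays, and they were not tested.

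**Figure D4:**
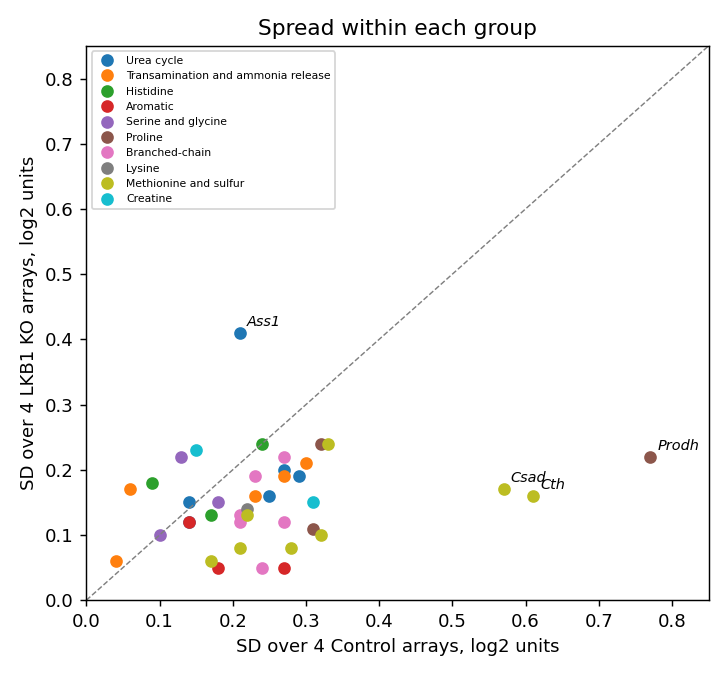
SD over the 4 Control arrays (x axis) against SD over the 4 LKB1 KO arrays (y axis), both in log2 units, for the 40 genes coloured by sub-pathway; the dashed line marks equal SDs. Most points lie below the line, farthest for Prodh, Cth and Csad, while Ass1 lies above it.

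Single arrays stood out in the members. Control 4 held the lowest Control value in 22 of 40, against 26.3% of all genes, and LKB1 KO 2 the lowest LKB1 KO value in 27 of 40, against 32.7% of all genes or 43.3% of the brighter ones. After quantile normalization the counts were 23 and 19. Control 3 held the highest Control value in 19 of 40 (47.5%, against 22.4% of all genes). Their part in each difference is given above where leaving them out changed a call. The median over the members was -0.08 to 0.06 over the alternatives, so it changed sign among them.

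Related enzymes outside the member list leaned lower. Of 50 measured enzymes of amino acid breakdown and nitrogen handling, 0 rose and 3 fell (6.0% called, against 1.98% of all genes and 3.79% of the brighter ones). The mean was lower in 36 of them (median -0.14), against 10924 of all 23185 genes (median 0.02). Hepatocyte markers leaned the same way, with 9 of 11 means lower and a median of -0.16. Grhpr, the reductase that clears glyoxylate and hydroxypyruvate, was at 8.52, 8.68, 8.61 and 8.61 in Control and 7.74, 7.21, 7.78 and 7.65 in LKB1 KO. All LKB1 KO arrays were far below Control, a fall of 1.01 on the log2 scale (difference -1.01, SE 0.15, adjusted p = 0.00663).

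Bhmt2, which methylates homocysteine from S-methylmethionine, fell as well. Its values were 8.61, 8.34, 8.16 and 8.51 in Control and 7.59, 7.46, 7.66 and 7.73 in LKB1 KO, without overlap (difference -0.80, SE 0.14, adjusted p = 0.0160). Among single arrays left out, the call ended only without LKB1 KO 1 (0.0535). It also ended with the replicate number as a block (0.0514) and without both LKB1 KO 2 and Control 4 (0.0555). Set against its relative Bhmt, the log2 ratio of Bhmt to Bhmt2 was -1.88 to -1.49 in Control and -0.93 to -0.58 in LKB1 KO, a shift of 0.89 (exact permutation p = 0.0286, adjusted over 8 pairs 0.0762). Here again the p is the smallest possible, for a pair picked after its values had been seen. Whether probes of these near relatives pick up each other's transcripts was not tested.

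Glul, glutamine synthetase, which takes up residual ammonia in pericentral hepatocytes, also fell. It was at 10.68, 10.87, 10.85 and 10.74 in Control and 10.18, 9.78, 10.20 and 10.15 in LKB1 KO. The groups were separate, with LKB1 KO 2 lowest (difference -0.71, SE 0.13, adjusted p = 0.0239). Leaving out any array except Control 4 or LKB1 KO 2 ended the call (adjusted p up to 0.0836), as did the replicate number as a block (0.0831). Among 16 pericentral markers 5 fell (Glul, Cyp2e1, Cyp1a2, Cyp27a1 and Rgn) and 0 rose. The share called was 31.2%, against 1.98% of all genes and 3.79% of the brighter ones. Oat, Axin2, Lgr5 and Nkd1 nevertheless had higher means, that of Oat with all LKB1 KO arrays above Control (difference 1.08, limma adjusted p = 0.0535). The list had a median of -0.36 and a summed level of 13.31 to 13.76 in Control and 13.08 to 13.31 in LKB1 KO. Among 12 periportal markers outside the members, G6pc rose by 1.09 and Pigr, Cyp2f2 and Hsd17b6 fell (33.3% called). The 12 had a median of 0.01 and a summed level of 12.95 to 13.12 in Control and 12.84 to 13.17 in LKB1 KO. The calls of Rgn and Cyp27a1 were lost in 7 and 6 of the 8 fits that left out a single array (adjusted p up to 0.110 and 0.0800), and those of Hsd17b6 and Cyp2f2 in 7 and 4 (up to 0.128 and 0.0810). That of Hsd17b6 was also lost with quantile normalization (0.0529), and those of G6pc and Cyp2f2 without both LKB1 KO 2 and Control 4 (0.0520 and 0.0916). The part of these markers in the falls of Glul and Gamt was not tested.

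Transporters moved both ways, with 2 of 31 higher and 2 lower (12.9% called, against 1.98% of all genes, 0.487% higher and 1.49% lower; median -0.08). The rises were in mitochondrial carriers. Slc25a15, which exchanges ornithine and citrulline for the urea cycle, stood at 9.09, 9.03, 9.64 and 9.62 in Control and 10.18, 10.08, 10.16 and 10.0 in LKB1 KO. The Control arrays formed a lower and a higher pair, both below LKB1 KO (difference 0.76, SE 0.17, adjusted p = 0.0466). Leaving out Control 1, Control 2 or a single LKB1 KO array ended the call of Slc25a15 (up to 0.130), as did median centring (0.0762). That call was also lost with the replicate number as a block (0.0928) and without both LKB1 KO 2 and Control 4 (0.0574).

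The glutamate carrier gene Slc25a22 had 7.51, 8.03, 8.67 and 8.77 in Control and 9.58, 9.12, 9.54 and 9.57 in LKB1 KO. It was higher on every LKB1 KO array (difference 1.21, SE 0.26, adjusted p = 0.0413). Its call was lost when the same single arrays were left out (up to 0.127), with median centring (0.0661) and with the replicate number as a block (0.0536). The falls were in transporters of other membranes. Slc38a3, the glutamine transporter of the hepatocyte surface, was at 10.84, 10.90, 11.20 and 10.95 in Control and 10.39, 10.19, 10.20 and 10.36 in LKB1 KO. No array overlapped (difference -0.69, SE 0.13, adjusted p = 0.0221). Among single arrays left out, that call stood only without Control 1, Control 4 or LKB1 KO 2 (otherwise up to 0.0713). It was also lost with the replicate number as a block (0.0808) and without both LKB1 KO 2 and Control 4 (0.0624). Slc36a1, a proton-coupled carrier of small amino acids, was at 6.89 to 7.49 in Control and 5.95 to 6.23 in LKB1 KO (difference -1.08, SE 0.15, adjusted p = 0.00522).

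**Figure D5:**
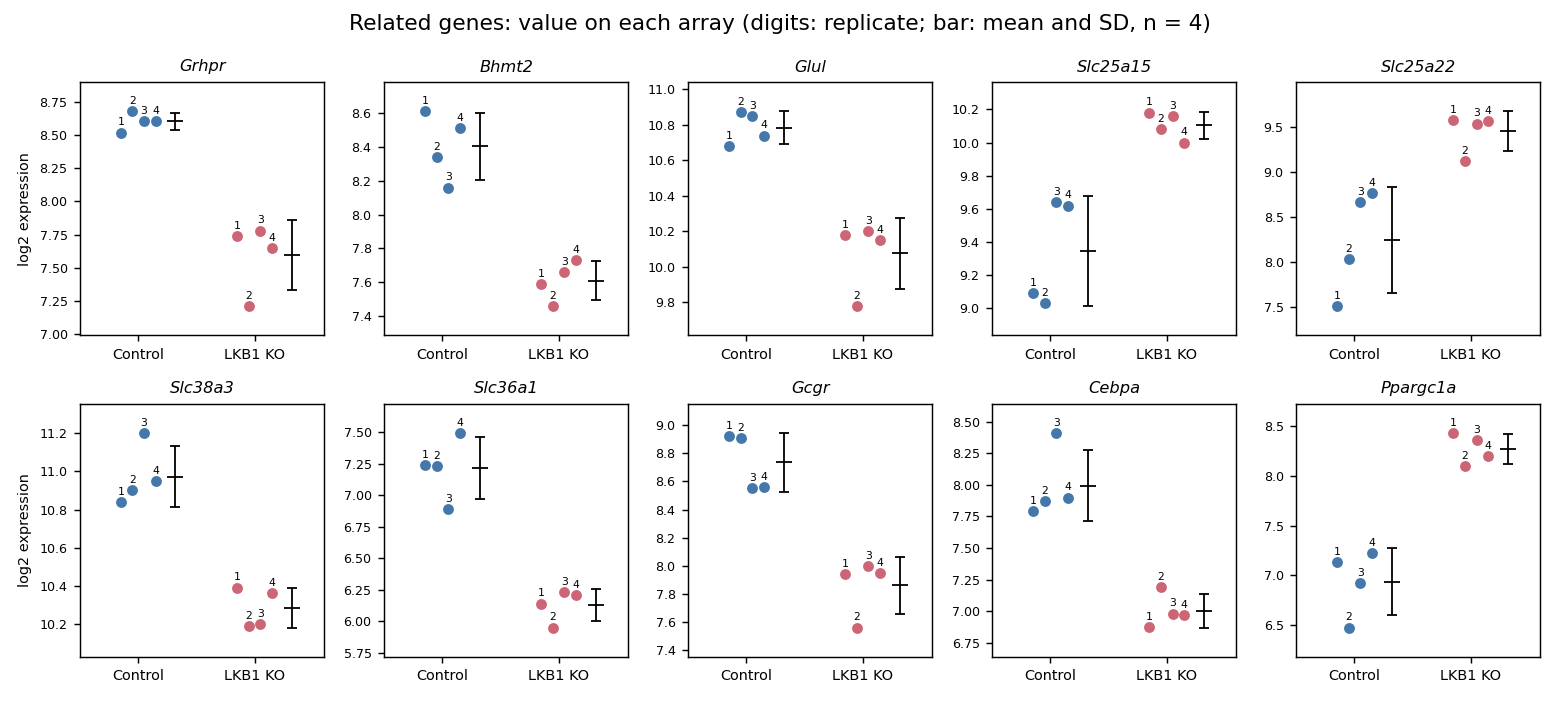
Log2 expression on each array for 10 related genes that passed the test, Control in blue and LKB1 KO in red, with the replicate number above each point and the mean and SD (n = 4) beside it; the y axes differ and do not start at 0. Slc25a15, Slc25a22 and Ppargc1a are higher on all LKB1 KO arrays and the other 7 lower.

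Among 21 known regulators of amino acid breakdown, 5 fell and 1 rose (28.6% called, against 1.98% of all genes and 3.79% of the brighter ones; median -0.12). Gcgr, the glucagon receptor gene, was at 8.92, 8.91, 8.55 and 8.56 in Control and 7.94, 7.56, 8.0 and 7.95 in LKB1 KO. All LKB1 KO arrays were lower (difference -0.87, SE 0.15, adjusted p = 0.0173), and the call ended without Control 1 or Control 2 (up to 0.0627). It also ended with the replicate number as a block (0.063). Cebpa, the gene of C/EBP alpha, was at 7.79, 7.87, 8.41 and 7.90 in Control and 6.87, 7.19, 6.98 and 6.97 in LKB1 KO. It too was lower throughout (difference -0.99, SE 0.16, adjusted p = 0.0108).

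The coactivator gene Ppargc1a was the regulator that rose, from 6.47 to 7.22 in Control to between 8.10 and 8.43 in LKB1 KO (difference 1.34, adjusted p = 0.00401). The nuclear receptor genes Nr1h4 and Ppara fell (differences -1.26 and -1.24), as did Prox1 (-0.90). Among single arrays left out, the Prox1 call was kept only without Control 1 (otherwise adjusted p up to 0.0830). That call was also lost with the replicate number as a block (0.0593). Hnf4a, the hepatocyte factor, differed by -0.04 (interval -0.34 to 0.26). Members and regulators share the same arrays, and no relation between them was tested.

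Markers of other liver cells moved in these arrays too. The share called was 33.3% of the endothelial, 8.33% of the macrophage and 0% of the stellate cell markers. It was 12.5% of the cholangiocyte and 10% of the blood cell markers, against 1.98% of all genes and 3.79% of the brighter ones. In lists this short 1 call makes a large share. Of 12 sinusoidal endothelial markers Clec4g, Gpr182, Fcgr2b and Kdr fell and the other 8 were lower in mean without passing (median -0.50, summed level 10.42 to 10.70 in Control and 9.98 to 10.18 in LKB1 KO). Of 12 macrophage markers only Csf1r was called lower, while the mean was lower in all 12 (median -0.44, summed level 10.12 to 10.91 and 9.73 to 10.19). The macrophage markers had 7 at an unadjusted p under 0.05. Of 12 stellate cell markers 0 passed with limma (5 at an unadjusted p under 0.05). The mean was lower in 10 of them and higher in 2 (median -0.27, summed level 9.73 to 10.10 and 9.27 to 9.88). Of 8 cholangiocyte markers Prom1 rose by 2.21 (median 0.05, summed level 8.16 to 8.59 and 8.27 to 8.70). Of 10 markers of neutrophils, lymphocytes and red cells Alas2 fell (median -0.04, summed level 8.78 to 10.15 and 8.10 to 8.67). Of these calls, those of Fcgr2b, Kdr, Csf1r and Alas2 were lost when most single arrays were left out (adjusted p up to 0.108, 0.130, 0.110 and 0.141). That of Gpr182 was lost in 3 of the 8 single-array fits, with LKB1 KO 1, LKB1 KO 3 or Control 2 left out (highest adjusted p 0.0634). Log2 array values have no true zero, so absence of a cell type cannot be read from them. The part of these markers in the differences of Got1, Gamt and the other members was not tested.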

How the data were processed

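Total RNA was amplified with the Ovation PicoSL kit and biotin-labelled, per the labels' protocols. The deposited values are log2 expression, 1 per row and array, as the authors normalized them, with RMA and Partek named in the submitters' processing notes. No source used here gives a genome build, and no coordinates are printed. Of 25206 rows, 23185 had 1 gene symbol, 0 several and 2021 none; no symbol had more than 1 row. The number of arrays limits the precision.

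The group was the single term of a linear model per gene in limma 3.58.1 (R 4.3.3; lmFit, eBayes), with p-values adjusted by Benjamini-Hochberg and no filter on level; the fit was tested on simulated data. Pairs of enzymes were compared by an exact two-sided permutation test of within-array log2 ratios (SciPy 1.17.1). The members, sub-pathways and lists (other enzymes, transporters, regulators, periportal, pericentral, hepatocyte, endothelial, macrophage, stellate, cholangiocyte and blood cell markers) were chosen with earlier results of these data known, so lists are described without a test. Named in full were members past the threshold, otherwise the 2 smallest p per sub-pathway, and Cps1; of other lists, up to 6 past the threshold. Older symbols were updated through RefSeq. Alternatives covered pairing, single arrays, scaling, dim genes, variance model, array weights, rows and threshold; those on spread within groups, and the share of non-overlapping arrays without dim genes, were added after seeing the data.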

Additional observations from a re-analysis of the deposited data

Results flagged for a closer look

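Within groups of 4 arrays, 1 array lay far from the other 3 (Dixon's test at its 95% critical value) in 15 of 142 gene and group combinations. The nominal rate is about 1 in 20. These genes share the same arrays and many were named for a small p, and the share over all genes was not computed. The count therefore cannot show an excess particular to these genes. The 71 genes were the members, Stk11 and the named genes of the other lists.

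Control 4 was the low array in Ftcd (8.35, others 8.67 to 8.70), Prodh2 (7.60, others 8.16 to 8.25), Dbt (7.60, others 8.10 to 8.18) and Ahcy (5.64, others 6.23 to 6.34). Control 3 was the high array in Cps1 (11.85, others 11.57 to 11.58).

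LKB1 KO 2 was the low array in Got2 (9.63, others 9.94 to 9.98), Gpt (7.68, others 8.03 to 8.10), Prodh (6.33, others 6.76 to 6.80) and Aldh4a1 (8.45, others 8.90 to 8.95), and the high array in Csad (5.76, others 5.40 to 5.46). LKB1 KO 3 was the high array in Gpt2 (9.17, others 8.83 to 8.88). Outside the members, LKB1 KO 2 was low in Glul (9.78, others 10.15 to 10.20), Slc25a22 (9.12, others 9.54 to 9.58), Gcgr (7.56, others 7.94 to 8.0) and the pericyte gene Rgs5 (3.84, others 4.69 to 4.80). The same array thus accounts for 9 of the 15.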

How the results depend on the processing

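The count of called genes, 458, was 213 to 491 with single arrays left out (242 without Control 1, 213 without Control 2 and 232, 235 and 234 without LKB1 KO 1, 3 and 4), 268 with the replicate number as a block, 139 at an adjusted p under 0.01 and 721 with array weights. Quantile normalization gave 191 higher and 341 lower (35.9% higher, against 24.7% as deposited). Members called higher numbered 1, and 1 to 4 with single arrays left out (4 without Control 3), 2 with quantile normalization or array weights and 3 with a trended and robust prior variance. Members called lower numbered 1, and 0 to 3 with single arrays left out (3 without Control 4), 2 without the dimmest genes, 3 with the trended and robust prior or without both LKB1 KO 2 and Control 4, and 0 at an adjusted p under 0.01 or with the replicate block. The cause of these changes was not tested, and fits with a single array left out also have fewer samples. Arrays with equal numbers correlated at -0.04, -0.11, 0.18 and -0.02 in their deviations, and those with unequal numbers at -0.18 to 0.24. The labels do not say whether equal numbers pair the samples, and so few correlations cannot decide it. Ftcd turned to -0.03 without Control 4, in a range of -0.03 to 0.11 with single arrays left out. All 132 alternative values of the 11 medians (the members and their sub-pathways) differed from the main value by no more than the SD between arrays of a group. The alternatives share most or all arrays with the main fit, so this limit is loose and cannot show that the medians are stable. For the proline genes that SD was 0.347, with Control 4 at -0.60, and the median ranged from -0.64 to -0.35. Averaging rows by gene was not run, since each gene had 1 row. Rows of low signal such as that of Ass1 limit what the arrays can show. Whether low signal comes from the gene or from its probes was not tested.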

Other observations

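Values of 2 other enzymes of glyoxylate metabolism are given here, picked after their values were seen. Hao1, the oxidase that makes glyoxylate, was at 8.59 to 8.85 in Control and 8.06 to 8.32 in LKB1 KO (difference -0.52, SE 0.12, limma adjusted p = 0.0595). Hoga1, an aldolase that makes it from hydroxyproline, was at 7.15 to 7.87 and 6.68 to 7.02 (difference -0.54, SE 0.17, adjusted p = 0.155). Neither passed the test, although all LKB1 KO arrays lay below all Control arrays in both.

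Oat, ornithine aminotransferase, which links ornithine to glutamate and proline, stood at 10.10, 10.88, 11.46 and 10.50 in Control 1 to 4 and at 11.87, 11.68, 11.84 and 11.88 in LKB1 KO 1 to 4. The LKB1 KO arrays were nearly equal and above all Control arrays, with Control 3 the nearest. The difference was 1.08 (SE 0.24, interval 0.54 to 1.62), with a limma adjusted p of 0.0535. Tat, tyrosine aminotransferase, the step before Hpd, differed by 0.17 (interval -0.09 to 0.43).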
